A study of Caenorhabditis elegans with 14 samples.

Results

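The miRNAs described here are the C. elegans miRNAs that carry names from miR-4800 to miR-5599, with every annotated arm of each hairpin, except miR-4812, miR-5551 and miR-5594. Names in this range were given late, after deep sequencing had begun to find rare small RNAs. The rule found 67 of the 450 mature miRNA features in the tables, among 23869 small RNA features of all classes. These 67 features carry 62 names, since 5 names (miR-4922 and both arms of miR-5592 and of miR-5593) have a row for each of 2 annotated copies of the hairpin. They come from 42 hairpins at 45 loci. Apart from the named exceptions, for which the rule gives no reason, the features were chosen by the number in the name and not by level. The question was how many of them were detected, and whether they were down- or upregulated in pash-1 mutants.

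Whole gravid hermaphrodite adults of the wild-type strain N2 were compared with those of strain TAM93, which carries pash-1(ram33), an allele with the G179R substitution next to the tryptophan that names the WW domain of PASH-1. There were 3 biological replicate small RNA libraries of each strain at 20 °C, where animals grew for 72 h, and 4 of each at 25 °C, where they grew for 54 h, all from synchronized larvae fed E. coli OP50. The allele came from a chemical mutagenesis screen and was outcrossed to N2, so an effect of the allele and of other differences between these strains cannot be told apart here. The study states that developmental defects of the mutants at 25 °C limit how single miRNAs can be read there. It also reports fewer progeny of the mutants at that temperature. Strain differences at 25 °C cannot be told apart from these defects. miR-35-3p, a miRNA of the embryos that gravid adults carry, was listed at 30525 to 95117 rpm in the 14 libraries.

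PASH-1 is the worm Pasha, known as DGCR8 in mammals. With the ribonuclease Drosha it forms the Microprocessor, which cuts hairpins out of primary miRNA transcripts in the nucleus. Dicer then cuts the loop from the hairpin, and an Argonaute protein keeps one arm, which guides it to mRNAs with a matching seed. Mirtrons are hairpins whose ends are made by the splicing of a short intron, so they reach Dicer without a cut by the Microprocessor.

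Values were deposited as rpm, the reads of a feature scaled to the read total of its library, in a table for each temperature. A single read was worth 0.0425 to 0.061 rpm, as estimated from the spacing of low values, and the depth estimated from it was 16400000 to 23500000 reads per library. Within each table the values were rescaled by size factors, and limma was used to compare the strains on log2(rescaled rpm + 0.1), which understates changes near 0.1 rpm. Only features whose mean over the libraries of that temperature reached 1 rpm were tested, and adjusted p-values are limma's with Benjamini-Hochberg adjustment over all features tested (threshold 0.05). All fold changes below are of mutants over wild-type on this scale. The listed values summed to 899208 to 907393 rpm in wild-type and 862407 to 879385 rpm in mutants at 20 °C, and to 898606 to 903722 and 812424 to 861432 at 25 °C, so the strains also differed in the reads outside the listed features. Before the pseudocount, the rescaling shifts a log2 fold change from that of the deposited rpm by -0.37 at 20 °C and -0.59 at 25 °C, and with it by less for features near 0.1 rpm.

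Most of these miRNAs were rare or not detected. At 20 °C, 24 of the 67 features were listed above 0 in every library and 45 in at least 1 library. At 25 °C these numbers were 21 and 52. Both strains count in these numbers, and 20 features were above 0 in all 14 libraries. A listing above 0 can rest on less than 1 read. A further 15 features were listed at 0 in all 14 libraries, namely miR-4805-5p, miR-4808-5p, miR-4809-5p, miR-4930, miR-4931, miR-4932, miR-4935, miR-4938, miR-5545-5p, miR-5547-3p, miR-5548-5p, miR-5549-5p, miR-5550-5p, miR-5552-5p and miR-5595-3p. For 10 of these the other arm of the same hairpin was above 0 in at least 1 library, and 5 are the only annotated arm of their hairpin. Among the other 383 mature miRNAs, 247 were above 0 in all 14 libraries and 52 at 0 in all of them.

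Of the 67 features, 16 reached a mean of 1 rpm at 20 °C and 16 at 25 °C, against 217 and 216 of the other 383 mature miRNAs. In all, 17 features with 15 names from 12 hairpins reached it at either temperature, and 15 features reached it at both. A mean of 10 rpm was reached by 6 features at each temperature, and a mean of 50 rpm by none at 20 °C and by 1 at 25 °C. The most abundant in wild-type was miR-5592-3p at 20 °C, at rank 105 of the 450 mature miRNAs, and miR-4813-5p at 25 °C, at rank 102.

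The annotation divides these hairpins by their position. In the WBcel235 annotation, 16 of the 45 loci have both ends exactly at the ends of an intron on the same strand, with hairpin lengths of 52 to 65 nt. Among all 261 annotated hairpins 21 fill an intron to within 5 nt, and the 5 outside this set are mir-62, mir-1018, mir-1019, mir-1020 and mir-2220. Of the 16, 5 fill introns of protein-coding genes, which is the mirtron arrangement (mir-4927, mir-4926, mir-4924, mir-4920 and mir-4816). A further 9 fill introns of a single noncoding gene, Y59E1B.1, and 2 are the copies of mir-4922, which fill introns of a pair of pseudogenes on chromosome V. Extending the class to introns of noncoding genes and pseudogenes was decided after the annotation and values had been seen. The other 29 loci, 63 to 111 nt long, lie in longer introns, in a 3′ untranslated region or outside genes.

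**Figure D1:**
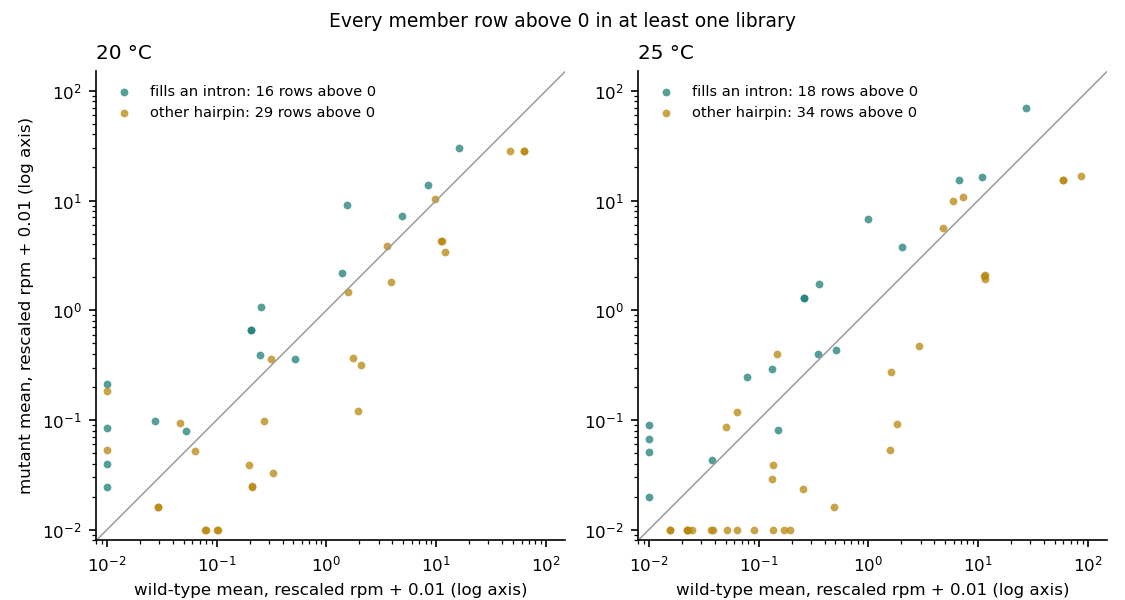
Mean rescaled rpm in wild-type (horizontal) and in pash-1(ram33[G179R]) mutants (vertical) for each feature above 0 in at least 1 library, with 0.01 added and both axes logarithmic, at 20 °C (left, 3 libraries per strain) and 25 °C (right, 4 per strain). Features of hairpins that fill an intron (green) lie mostly above the diagonal, and most others (ochre) lie below it, with miR-4936, miR-4937 and miR-5549-3p close to the diagonal or above it.

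At 20 °C, 8 of the 16 features tested were downregulated and 3 were upregulated in pash-1(ram33[G179R]) mutants. Their median log2 fold change was -0.47. Over all 7034 features tested, 3.84% were lower and 2.06% higher, and the median was -0.01. The closer comparison is with the 217 other mature miRNAs tested, in which 53.0% were lower, 10.1% higher and the median -0.43. At 25 °C, 7 of 16 features were downregulated and 8 upregulated, with a median of 0.38. Over all 7070 features tested, 39.3% were lower and 33.6% higher (median -0.04), and of the 216 other mature miRNAs 73.6% were lower and 15.7% higher (median -0.91). The median of the set at 25 °C was -0.15 with no filter on the mean and -0.85 with a mean of at least 5 rpm. The counts also differed between scalings. On the deposited rpm, 7 of the 16 features were lower and 9 higher at 25 °C, with 110 and 70 of the 216 other mature miRNAs and 942 and 3672 of all features. With size factors from the 22G siRNAs of the CSR class, siRNAs bound by the Argonaute CSR-1, they were also 7 and 9, with 88 and 88 of the other mature miRNAs and 276 and 4119 of all features. On scaling to the piRNA total they were 7 and 6, with 182 and 23 of the other mature miRNAs and 3484 and 1340 of all features. At 20 °C the deposited rpm gave 6 lower and 5 higher, with 82 and 56 of the 217 other mature miRNAs and 127 and 1598 of all features.

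The directions differed with the annotation of the hairpin. Among the features of hairpins that fill an intron, 5 were tested at 20 °C, of which 3 were upregulated, 2 passed in neither direction and none was downregulated. At 25 °C all 6 tested were upregulated. Among the features of all other hairpins, 11 were tested at 20 °C, of which 8 were downregulated and 3 passed in neither direction. At 25 °C, 10 were tested, of which 7 were downregulated, 2 upregulated (miR-4936 and miR-4937) and 1 passed in neither direction (miR-5549-3p). The median log2 fold change was 0.70 in the first group and -1.18 in the second at 20 °C, and 1.28 and -2.17 at 25 °C. The 7 downregulated features at 25 °C carry 5 names, all from mir-4811, mir-4813 and mir-5592. The 8 at 20 °C were these and miR-4929. Both arms of mir-4816 are likewise in the first group. Rows of the same hairpin are not independent, so these counts and medians rest on few hairpins. A feature near 1 rpm could reach the level for the test through the strain in which it was higher, so these counts are a description and carry no test of the grouping.

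**Figure D2:**
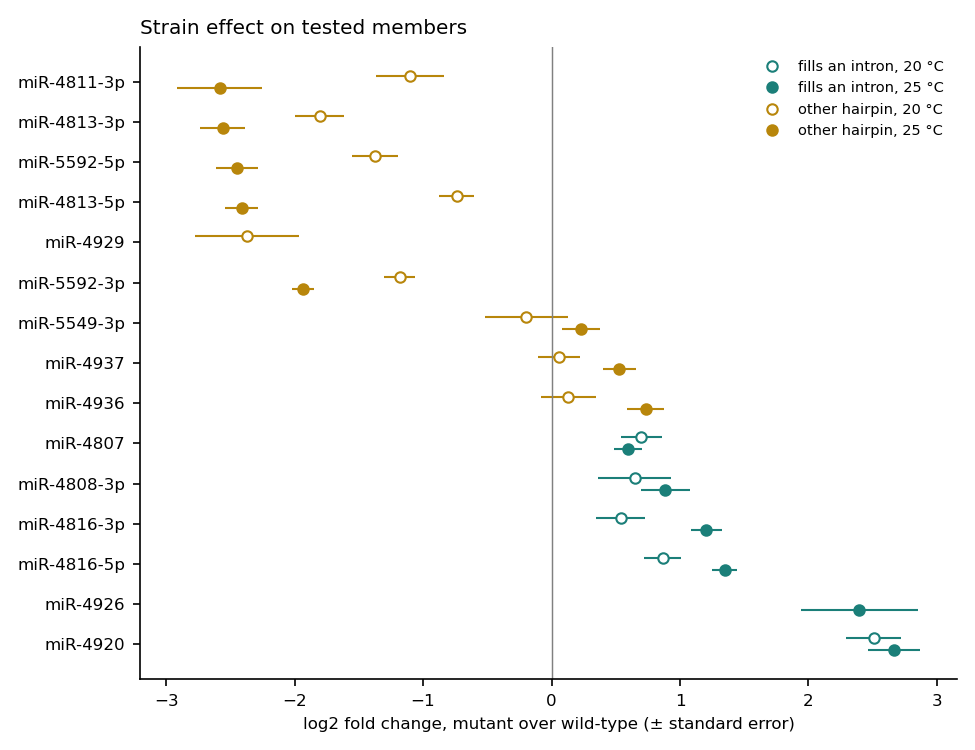
Log2 fold change of mutants over wild-type with its standard error (limma) for each name with a mean of at least 1 rpm, at 20 °C (open, 3 libraries per strain) and 25 °C (filled, 4 per strain). Every tested name whose hairpin fills an intron (green) was positive at each temperature at which it was tested, from 0.54 to 2.67, and miR-4811-3p, miR-4813, miR-4929 and miR-5592 (ochre) were between -0.74 and -2.58.

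The most abundant downregulated miRNAs were miR-5592-3p and miR-4813-5p. The 2 annotated copies of mir-5592 overlap on opposite strands of chromosome X, from 13759245 to 13759308 on the minus strand and from 13759247 to 13759310 on the plus strand. Both lie in an intron of aakb-1, which encodes a beta subunit of AMP-activated protein kinase. Both rows of miR-5592-3p held the same value in every library, so the copies could not be told apart. At 20 °C its rescaled rpm was 65.8, 57.9 and 67.5 in the wild-type libraries and 30.2, 27.0 and 26.8 in the mutant libraries. All mutant libraries were far below all wild-type libraries, and the difference was 2.27-fold (log2 fold change -1.18, standard error 0.119, adjusted p = 1.49e-09). At 25 °C the wild-type libraries held 54.4, 64.0, 59.9 and 59.4 and the mutant libraries 16.2, 14.7, 15.5 and 15.6. That difference was 3.82-fold (log2 fold change -1.93 with a standard error of 0.086, adjusted p = 3.75e-18).

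Its other arm, miR-5592-5p, was also downregulated. In rescaled rpm it went from 11.2 ± 0.503 to 4.30 ± 0.621 at 20 °C (SD, n = 3 libraries each) and from 11.6 ± 1.43 to 2.07 ± 0.475 at 25 °C (n = 4), without overlap at either temperature. Its log2 fold changes were -1.37 and -2.45 in the first of its rows and -1.36 and -2.44 in the second. The 3p arm made up 81.7% to 90.6% of the 2 arms in every library of either strain. Both mir-5592 hairpins were also counted as pre-miRNA reads, which overlap the hairpin but start over 3 nt from a mature 5′ end. These fell at both temperatures, with log2 fold changes of -0.70 and -0.83 for the copy on the minus strand (mir-5592.1) and of -1.03 and -1.68 for the copy on the plus strand (mir-5592.2). The decrease of the mir-5592.1 pre-miRNA reads did not pass at 20 °C without wild-type replicate 2 (adjusted p = 0.0798), without mutant replicate 2 (adjusted p = 0.0935) or without mutant replicate 3 (adjusted p = 0.0852). It passed at neither temperature on the deposited rpm, with log2 fold changes of -0.34 and -0.25 (adjusted p = 0.177 and 0.131).

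The mir-4813 hairpin lies in the 3′ untranslated region of idhg-1, on chromosome III from 4571640 to 4571716. This gene encodes a gamma subunit of the mitochondrial NAD-dependent isocitrate dehydrogenase. At 20 °C miR-4813-5p was at 46.4, 57.6 and 38.5 rescaled rpm in wild-type libraries and at 30.1, 30.5 and 24.1 in mutant libraries. The groups did not overlap, and the decrease was 1.67-fold (log2 fold change -0.74, standard error 0.136, adjusted p = 2.30e-04). In the wild-type libraries at 25 °C it was at 91.6, 88.2, 95.3 and 75.9 and in the mutant libraries at 22.3, 15.3, 12.1 and 17.4. There the decrease was 5.32-fold (log2 fold change -2.41 with a standard error of 0.127, adjusted p = 2.21e-13). The highest mutant library was far below the lowest wild-type library. The call at 20 °C was lost on the deposited rpm (log2 fold change -0.37, adjusted p = 0.0665), with size factors from the CSR class (-0.58, adjusted p = 0.119) and without limma's trend and robust options (adjusted p = 0.122).

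Its other arm changed by more at 20 °C. In rescaled rpm, miR-4813-3p went from 11.9 ± 1.16 to 3.38 ± 0.758 at 20 °C (SD, n = 3), a 3.50-fold decrease (-1.81 on the log2 scale, adjusted p = 4.20e-09). Its change at 25 °C was from 11.6 ± 1.14 to 1.92 ± 0.544 (n = 4), a 5.90-fold decrease (-2.56, adjusted p = 2.04e-13). The share of the 5p arm in the 2 arms was accordingly 76.9% to 81.4% in wild-type and 87.8% to 90.5% in mutants at 20 °C, without overlap. At 25 °C the ranges overlapped, at 86.2% to 90.6% in wild-type and 87.9% to 92.2% in mutants. The iso-miR of miR-4813-5p, whose reads start 1 to 3 nt from the annotated end, was 5.75 ± 1.42 and 4.55 ± 0.558 rescaled rpm at 20 °C (log2 fold change -0.31, adjusted p = 0.450), and it fell from 13.4 ± 3.46 to 2.18 ± 0.590 at 25 °C (log2 fold change -2.56).

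miR-4811-3p and miR-4929 were downregulated at lower levels. The mir-4811 hairpin lies outside genes on chromosome X, from 7185347 to 7185429. Its 3p arm was at 3.06, 3.84 and 4.65 rescaled rpm in wild-type and at 1.13, 2.06 and 2.16 in mutants at 20 °C (log2 fold change -1.10, standard error 0.265, adjusted p = 5.94e-03). At 25 °C the wild-type libraries were at 2.85, 3.09, 2.76 and 2.91 and the mutant libraries at 0.387, 0.841, 0.487 and 0.133 (log2 fold change -2.58 with a standard error of 0.331, adjusted p = 8.83e-08). The groups did not overlap at either temperature, but without mutant replicate 1 the call at 20 °C was lost (log2 fold change -0.82, adjusted p = 0.105). It was also lost on the deposited rpm (adjusted p = 0.0565), with size factors from the CSR class (adjusted p = 0.131) and without limma's trend and robust options (adjusted p = 0.0900). The 5p arm of this hairpin was listed above 0 in only 1 library at 20 °C and 2 libraries at 25 °C. The mir-4929 hairpin lies in an intron of E01G4.3 on chromosome II, from 13461755 to 13461864. miR-4929 was at 1.64, 1.79 and 2.68 rescaled rpm in wild-type and at 0.295, 0.348 and 0.274 in mutants at 20 °C, a 5.17-fold decrease (log2 fold change -2.37, standard error 0.405, adjusted p = 6.33e-05). It reached the level for the test through wild-type, with means of 1.84 rpm there and 0.353 rpm in mutants, and it also passed in the fit with no filter on the mean (adjusted p = 1.85e-05). Likewise miR-4811-3p reached it at 25 °C through wild-type (2.43 against 0.595 rpm) and passed with no filter (adjusted p = 4.52e-07). For miR-4929 the mean at 25 °C was 0.686 rpm, under the level for the test. There the wild-type libraries were at 1.78, 1.65, 1.26 and 1.59 rescaled rpm, while 2 mutant libraries were listed at 0 and the others at 0.038 and 0.133.

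**Figure D3:**
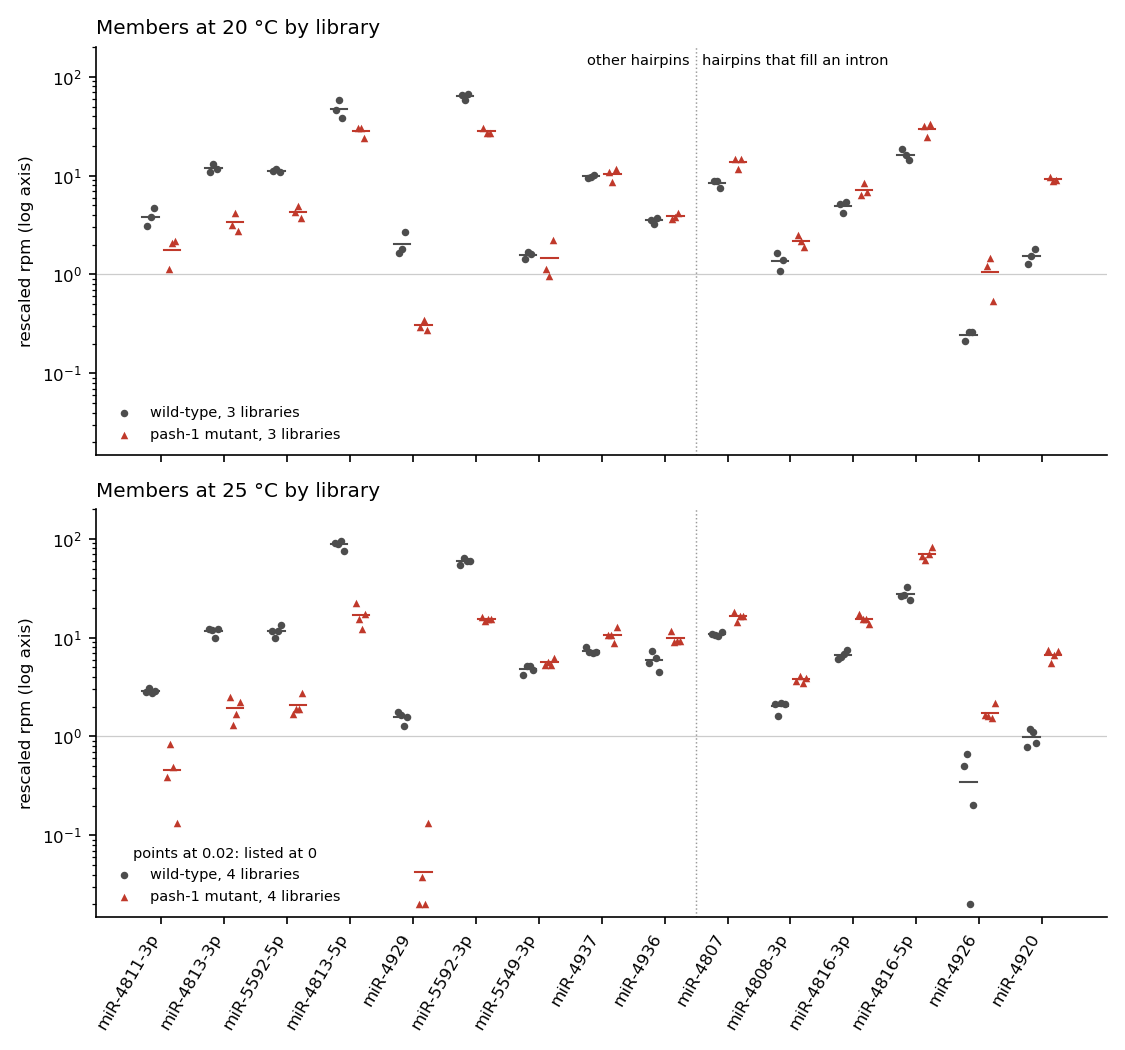
Rescaled rpm (log axis) of each name with a mean of at least 1 rpm at either temperature, by library, at 20 °C (top) and 25 °C (bottom). Bars mark the means, and points at 0.02 stand for libraries listed at 0. In mutants at 25 °C miR-5592-3p was at 14.7 to 16.2 and miR-4816-5p at 60.9 to 82.8, against 54.4 to 64.0 and 24.0 to 32.3 in wild-type.

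Among hairpins that do not fill an intron, miR-4936, miR-4937 and miR-5549-3p stood apart, since none of them was called downregulated at either temperature. All 3 hairpins lie outside annotated genes, mir-4936 and mir-5549 on chromosome III (3249151 to 3249260 and 6971976 to 6972085) and mir-4937 on chromosome IV (1381705 to 1381814). miR-4936 was at 3.57, 3.27 and 3.72 rescaled rpm in wild-type and at 3.68, 3.78 and 4.14 in mutants at 20 °C (0.13 on the log2 scale, adjusted p = 0.797). It was upregulated at 25 °C, from 5.57, 7.27, 6.27 and 4.49 in wild-type to 11.6, 9.02, 9.31 and 9.27 in mutants (log2 fold change 0.74, standard error 0.144, adjusted p = 5.41e-05), with no overlap. The pre-miRNA reads of the same hairpin went the other way at 25 °C, from 10.2 ± 1.51 to 4.96 ± 0.734 rescaled rpm (SD, n = 4), a log2 fold change of -1.03 (standard error 0.142). At 20 °C they were 3.26 ± 0.303 and 4.34 ± 0.759 (n = 3), which passed in neither direction (log2 fold change 0.39, adjusted p = 0.349). At 25 °C this hairpin thus gave more pre-miRNA reads than mature reads in wild-type and fewer in mutants. With size factors from the CSR class the log2 fold change of these pre-miRNA reads at 25 °C was -0.16 and did not pass (adjusted p = 0.334), and on the deposited rpm that at 20 °C was 0.75 and passed (adjusted p = 0.0194). The iso-miR of miR-4936 had log2 fold changes of 0.60 and -0.47 (adjusted p = 0.396 and 0.0550), and at 25 °C its decrease passed without wild-type replicate 1 (adjusted p = 0.0492), wild-type replicate 2 (adjusted p = 0.0374) or mutant replicate 1 (adjusted p = 0.0126).

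For miR-4937 the wild-type mean was 9.79 ± 0.324 rescaled rpm and the mutant mean 10.3 ± 1.58 at 20 °C (SD, n = 3), a log2 fold change of 0.06 (adjusted p = 0.880). Its levels rose at 25 °C from 7.97, 7.21, 6.93 and 7.20 to 10.6, 10.5, 8.87 and 12.8 (log2 fold change 0.53, standard error 0.128, adjusted p = 5.86e-04), a call that was lost on scaling to the piRNA total (log2 fold change 0.17, adjusted p = 0.274). miR-5549-3p was at 1.57 ± 0.134 and 1.45 ± 0.699 at 20 °C (-0.19 on the log2 scale, adjusted p = 0.803). Its means at 25 °C were 4.79 ± 0.474 and 5.63 ± 0.459 (n = 4; log2 fold change 0.23, adjusted p = 0.154), and its direction followed the scaling, from -0.12 on scaling to the piRNA total to 1.09 with size factors from the CSR class, where it passed as higher (adjusted p = 6.24e-07), as it did on the deposited rpm (0.81, adjusted p = 2.16e-05). Only the 3p arm of mir-5549 was detected.

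The strongest increase among the mirtrons was that of miR-4920, from a hairpin of 56 nt on chromosome IV that fills an intron of sph-1. At 20 °C the wild-type libraries were at 1.29, 1.53 and 1.81 rescaled rpm and the mutant libraries at 9.65, 8.83 and 9.04. All mutant libraries were thus far above all wild-type libraries (5.69-fold, log2 fold change 2.51, standard error 0.215, adjusted p = 2.69e-11). At 25 °C the values were 0.779, 1.18, 1.10 and 0.865 in wild-type and 7.42, 5.52, 6.63 and 7.38 in mutants (6.35-fold, log2 fold change 2.67, standard error 0.201, adjusted p = 1.74e-12). miR-4926, whose hairpin of 52 nt fills an intron of ari-1.3 on chromosome I, had a mean of 0.727 rpm at 20 °C, under the level for the test. Its wild-type libraries were then at 0.211, 0.261 and 0.263 and its mutant libraries at 1.22, 1.45 and 0.540, without overlap. Its levels rose at 25 °C from 0.508, 0.672, 0 and 0.204 to 1.63, 1.61, 1.55 and 2.16 (5.27-fold, log2 fold change 2.397, standard error 0.458, adjusted p = 3.96e-05). Both reached the level for the test at 25 °C through the mutants, with means of 0.823 rpm (wild-type) and 8.46 rpm (mutants) for miR-4920 and of 0.298 and 2.18 rpm for miR-4926. Both also passed in the fit with no filter on the mean, with adjusted p = 3.35e-11 and 9.10e-05.

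Both arms of mir-4816 were detected. This hairpin of 65 nt lies on chromosome I, from 6185080 to 6185144, and fills an intron of T09B4.2. The 5p arm, miR-4816-5p, the most abundant of the miRNAs from such hairpins, was at 18.5, 16.2 and 14.2 rescaled rpm in wild-type and at 31.4, 24.6 and 33.5 in mutants at 20 °C (log2 fold change 0.86, standard error 0.142, adjusted p = 3.61e-05), a call lost without limma's trend and robust options (adjusted p = 0.0572). At 25 °C this arm was at 26.6, 26.9, 32.3 and 24.0 in wild-type and at 67.0, 60.9, 69.3 and 82.8 in mutants, a 2.54-fold increase (log2 fold change 1.35, standard error 0.0956, adjusted p = 4.42e-13). miR-4816-3p was at 4.90 ± 0.624 and 7.16 ± 1.09 at 20 °C (SD, n = 3), without overlap, which passed on the deposited rpm (log2 fold change 0.90, adjusted p = 3.68e-03) but not after rescaling (0.54, adjusted p = 0.0958). Without wild-type replicate 3 it passed as well (0.60, adjusted p = 0.0343). It also rose at 25 °C, from 6.68 ± 0.669 to 15.5 ± 1.51 (n = 4; log2 fold change 1.21, adjusted p = 7.31e-10). The iso-miR of miR-4816-3p rose at both temperatures, with log2 fold changes of 0.99 and 1.43, and was the only iso-miR of these hairpins that reached the level for the test. Its call at 20 °C was lost without mutant replicate 3 (log2 fold change 0.83, adjusted p = 0.0878). The 5p arm made up 72.6% to 85.7% of both arms over all libraries, and its ranges overlapped between the strains.

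The remaining mirtrons, miR-4924 and miR-4927, were near the limit of detection. miR-4924 was above 0 in 1 mutant library at 20 °C and in 2 at 25 °C, and miR-4927 in 2 and 3, with means of at most 0.0488 rpm. Neither was listed above 0 in any wild-type library. No fold change is given for them, because the wild-type libraries were all at 0.

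The noncoding gene Y59E1B.1 lies on the plus strand of chromosome X from 1871399 to 1880492, and 9 of the hairpins fill its introns (mir-4807, mir-4808, mir-4809, mir-4810a, mir-4810b, mir-4921, mir-4923a, mir-4923b and mir-4925). An arm at the 3′ end of the hairpin, and so at the 3′ end of the intron, is annotated for each of them. Of the 12 features, 2 reached the level for the test. miR-4807, from the hairpin nearest to the start of the gene (1872466 to 1872526), was at 8.83, 8.90 and 7.44 rescaled rpm in wild-type and at 14.7, 11.7 and 14.8 in mutants at 20 °C (log2 fold change 0.70, standard error 0.162, adjusted p = 4.01e-03). In the wild-type libraries at 25 °C it was at 10.9, 10.6, 10.4 and 11.4 and in the mutant libraries at 18.4, 14.3, 16.4 and 16.6 (log2 fold change 0.59 with a standard error of 0.108, adjusted p = 2.21e-05). The groups did not overlap at either temperature. The call at 20 °C was lost without mutant replicate 1 (log2 fold change 0.64, adjusted p = 0.0596), without mutant replicate 3 (0.64, adjusted p = 0.0575) and without limma's trend and robust options (adjusted p = 0.0906), and that at 25 °C on scaling to the piRNA total (0.23, adjusted p = 0.0750).

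miR-4808-3p, from the next hairpin (1872952 to 1873008), was at 1.64, 1.08 and 1.39 rescaled rpm in wild-type and at 2.51, 2.15 and 1.89 in mutants at 20 °C. The groups did not overlap, but the difference did not pass (log2 fold change 0.65, standard error 0.287, adjusted p = 0.215) except on the deposited rpm (0.99, adjusted p = 0.0151). At 25 °C it rose from 2.11, 1.59, 2.20 and 2.15 to 3.65, 4.12, 3.46 and 3.93 (log2 fold change 0.89 with a standard error of 0.190, adjusted p = 1.58e-04). The other features of this gene had means under 1 rpm. miR-4923b, the most abundant of them, was at 0.504 ± 0.144 in wild-type and 0.348 ± 0.101 in mutants (rescaled rpm) at 20 °C and at 0.494 ± 0.273 and 0.420 ± 0.171 at 25 °C, with overlap at both. miR-4810b-3p was listed at 0 in all 3 wild-type libraries and above 0 in all 3 mutant libraries at 20 °C, at a mutant mean of 0.204, and overlapped at 25 °C. Along the gene, the highest levels were thus those of the pair of hairpins nearest to its start.

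**Figure D4:**
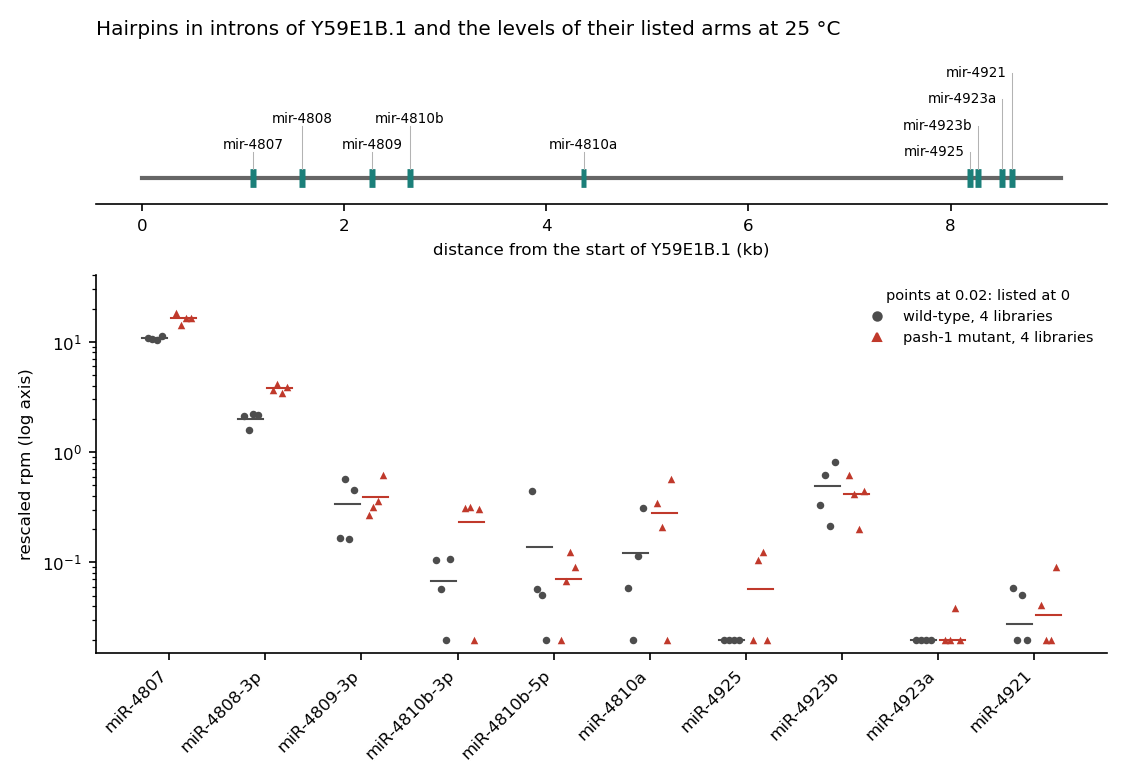
Top, the 9 hairpins that fill introns of Y59E1B.1, by distance from the start of the gene in kb. Bottom, rescaled rpm (log axis) of each arm above 0 in at least 1 library at 25 °C, by library, with bars at the means and points at 0.02 for libraries listed at 0. miR-4807 was at 10.4 to 11.4 in wild-type and 14.3 to 18.4 in mutants, and miR-4808-3p at 1.59 to 2.20 and 3.46 to 4.12, while the arms from hairpins farther along were below 1 and overlapped between the strains.

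miR-4922 has 2 annotated copies on chromosome V (3304833 to 3304890 and 3380145 to 3380209), each filling an intron of a pseudogene, and both rows held the same values. It stayed under a mean of 1 rpm. At 20 °C it was at 0.140, 0.261 and 0.179 rescaled rpm in wild-type and at 0.543, 0.729 and 0.677 in mutants. At 25 °C it was at 0.366, 0.205, 0.253 and 0.180 in wild-type and at 1.36, 1.17, 1.48 and 1.15 in mutants. No mutant library overlapped a wild-type library at either temperature.

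Low features were described without a test, by whether the libraries of the strains overlapped. At 20 °C, 29 features were above 0 with a mean under 1 rpm. Of these, 7 had all mutant libraries below all wild-type libraries and 5 had them all above. Over all 12216 such features of all classes the shares were 3.86% and 6.44%, and over the 103 other mature miRNAs of this kind they were 19.4% and 8.74%. At 25 °C the counts were 8 lower and 2 higher of 36, against 4.04% and 10.2% of all 12471 such features and 20.2% and 11.0% of 109 other mature miRNAs. Of the low features of hairpins that fill an intron, 4 of 11 were higher without overlap at 20 °C and 2 of 12 at 25 °C. None of them was lower without overlap. Of the low features of other hairpins, 7 of 18 were lower and 1 higher at 20 °C, and 8 of 24 were lower at 25 °C. The higher ones were miR-4810b-3p, both rows of miR-4922, miR-4926 and miR-5550-3p at 20 °C and both rows of miR-4922 at 25 °C, and only miR-5550-3p among them does not fill an intron. All the lower ones came from other hairpins.

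The clearest of the low decreases were miR-4806-5p and miR-4814-3p. The mir-4806 hairpin lies in an intron of ras-1, which encodes a small GTPase of the Ras family, and mir-4814 in an intron of W06F12.2. miR-4806-5p was at 2.78, 1.28 and 1.71 rescaled rpm in wild-type and at 0.249, 0.041 and 0.043 in mutants at 20 °C. At 25 °C it was at 1.72, 1.55, 2.20 and 1.79 in wild-type, and in mutants 1 library was listed at 0 and the others were at 0.039, 0.115 and 0.175. miR-4814-3p went from 1.75 ± 0.188 to 0.360 ± 0.123 at 20 °C (SD, n = 3) and from 1.59 ± 0.659 to 0.261 ± 0.0961 at 25 °C (n = 4), without overlap at either temperature. The mean of both features over the libraries of both strains was just under the level for the test, at 0.917 and 0.993 rpm at 20 °C.

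The remaining low decreases rested on few reads per library, or on less than 1. In mutants at 20 °C miR-4805-3p was listed at 0.02 to 0.03 rpm, where 1 read was worth 0.045 to 0.053 rpm. miR-4805-3p was at 0.175 to 0.431 rescaled rpm in wild-type and 0.0184 to 0.0257 in mutants at 20 °C, and at 25 °C it was at 0.354 to 0.614 in wild-type and listed at 0 in 3 of the 4 mutant libraries. miR-5545-3p was above 0 in every wild-type library at both temperatures, at 0.0351 to 0.278, and at 0 in every mutant library. miR-4806-3p, the other arm of mir-4806, was at 0.106 to 0.215 in wild-type and at 0 in all mutant libraries at 25 °C, but at 20 °C it was above 0 in 1 mutant library and overlapped. The low feature that went the other way, miR-5550-3p, was at 0 in all wild-type libraries and at 0.133 to 0.212 in mutants at 20 °C, and at 25 °C it was above 0 in 2 wild-type and 3 mutant libraries. Its hairpin lies in an intron of kgb-1, on the opposite strand to that gene. Both rows of miR-5593-3p and the rows of miR-4933, miR-5546-5p and miR-5548-3p were above 0 in only 1 wild-type library at 25 °C and in no other library.

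Summed over the members, the 2 kinds of hairpin moved in opposite directions. In every library, most of the sum for hairpins that fill an intron came from mir-4816. Most of the sum for the other hairpins came from mir-5592, counted at both loci, and mir-4813. In deposited rpm, the features of hairpins that fill an intron summed at 20 °C to 30.3 ± 0.782 in wild-type libraries and 75.6 ± 4.21 in mutant libraries (SD, n = 3), and to 41.8 ± 1.32 and 148.9 ± 7.42 at 25 °C (n = 4). Those of the other hairpins summed to 210.9 ± 11.2 and 132.8 ± 6.12 at 20 °C and to 225.3 ± 12.8 and 102.3 ± 5.68 at 25 °C. In rescaled rpm the sums of the first kind were 1.94 and 2.37 times as high in mutants as in wild-type, and those of the second changed by -51.1% and -69.8%. No library of either strain overlapped with the other in any of these sums. The sum over all 67 features combines both, and in rescaled rpm it changed by -32.9% at 20 °C and -37.4% at 25 °C, or by -25.9% and -29.4% with identical rows summed once. In deposited rpm it was 241.2 ± 10.7 and 208.3 ± 3.44 at 20 °C and 267.1 ± 13.7 and 251.2 ± 8.43 at 25 °C. On that scale alone, summing identical rows once turned the direction at 25 °C, with 217.0 ± 10.2 in wild-type and 230.0 ± 8.999 in mutants.

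**Figure D5:**
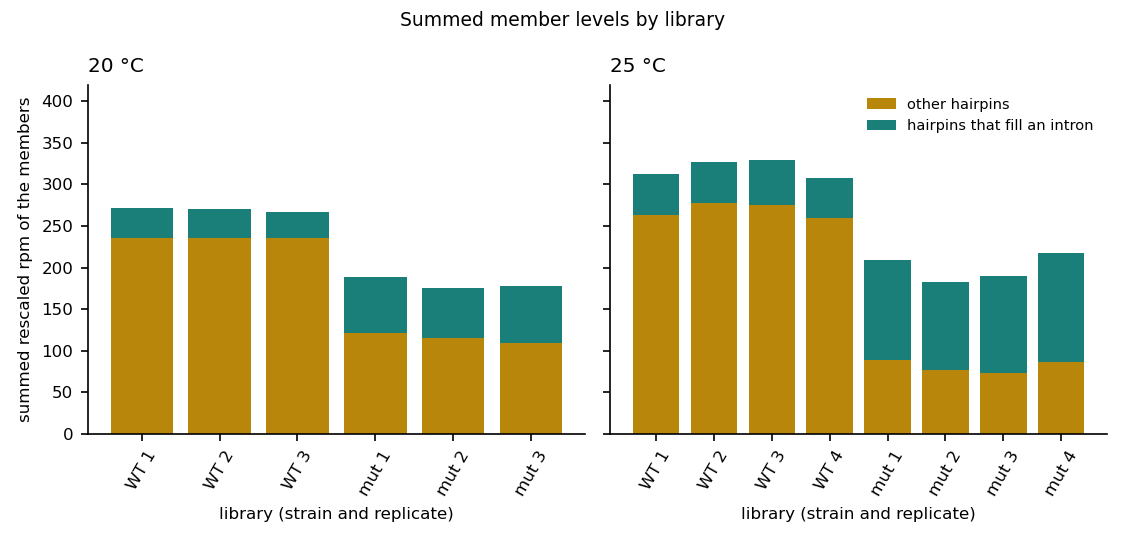
Summed rescaled rpm of all 67 features in each library, at 20 °C (left) and 25 °C (right), split into hairpins that fill an intron (green) and other hairpins (ochre). At 25 °C the first kind summed to 49.98 ± 2.65 in wild-type and 118.4 ± 10.6 in mutants, and the second to 269.0 ± 9.14 and 81.4 ± 7.55 (SD, n = 4).

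Fold changes at 25 °C were compared with those at 20 °C by an interaction of strain and temperature over the 14 libraries, for the 15 features tested at both. Of these, 7 were more negative at 25 °C and 3 more positive, against 22.5% and 15.5% of all 6396 features and 48.6% and 11.3% of the 212 other mature miRNAs tested. The 7 were miR-4811-3p (difference in log2 fold change -1.48, adjusted p = 9.67e-03), miR-4813-5p (-1.68, adjusted p = 2.97e-07), miR-4813-3p (-0.75, adjusted p = 0.0246), both rows of miR-5592-3p (-0.75, adjusted p = 9.47e-05) and both rows of miR-5592-5p (-1.07 and -1.08). The 3 were miR-4816-5p (0.48, adjusted p = 0.0241), miR-4816-3p (0.67, adjusted p = 0.0121) and miR-4936 (0.60, adjusted p = 0.0433). The differences for miR-4807 (-0.11), miR-4808-3p (0.24) and miR-4920 (0.16) did not pass (adjusted p = 0.668, 0.568 and 0.686).

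With size factors from the CSR class only 1 feature was more negative (miR-4813-5p, -0.96) and 8 were more positive, beside 22 and 84 of the 212 other mature miRNAs and 105 and 2768 of all 6396 features. On scaling to the piRNA total 8 were more negative and none more positive, beside 148 and 5 of the other mature miRNAs and 2601 and 227 of all features. The difference for miR-4813-5p was negative and passed under all 5 scalings tried. The count of more positive features was 1 without wild-type replicate 1 or mutant replicate 2 at 20 °C or wild-type replicate 4 at 25 °C, and 5 without mutant replicate 3 at 20 °C. In that order, the 212 other mature miRNAs gave 19, 15, 18 and 15, and all 6396 features 1051, 903, 831 and 792. The difference for miR-4936 was lost without any 1 of 9 of the 14 libraries (adjusted p at most 0.130). That for miR-4816-5p was lost without wild-type replicate 1 or mutant replicate 2 at 20 °C or without replicate 4 of either strain at 25 °C (adjusted p = 0.0561 to 0.107). Without wild-type replicate 1 or mutant replicate 2 at 20 °C or mutant replicate 2 at 25 °C, that for miR-4813-3p was lost (adjusted p = 0.0504 to 0.0896). That for miR-4813-3p was also lost on the deposited rpm (-0.54, adjusted p = 0.115), with no filter on the mean (adjusted p = 0.0600) and without limma's trend and robust options (adjusted p = 0.0561). With no filter, those for miR-4816-5p (adjusted p = 0.0581) and miR-4936 (adjusted p = 0.0955) were lost too. Without limma's trend and robust options the difference for miR-4816-5p did not pass either (adjusted p = 0.102). With size factors computed without the miRNA classes, that for miR-4936 did not pass (adjusted p = 0.0512). All mature features that passed with the size factors of the main comparison kept the direction of their strain effect under these 5 scalings at either temperature. That of miR-5549-3p, which passed at 25 °C only on the deposited rpm and with the CSR class, did not.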

How the data were processed

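Small RNA libraries of wild-type and pash-1(ram33) adults were sequenced by the authors, who trimmed reads with fastp, aligned them to the WS279 release with bowtie and counted them with tinyRNA. The deposited values are rpm, rounded to 2 decimals, in a table per temperature. How reads that match several loci were shared is not given in the sources used here. The class column of the 20 °C table stood 1 line below its features and was shifted back, which made the classes of all 23869 features equal in both tables. No column was left unmapped (0).

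The values in each table were rescaled by median-of-ratios size factors and tested with limma 3.58.1 (trend and robust) in R 4.3.3 on log2(rescaled rpm + 0.1). Those whose mean reached 1 rpm were tested per temperature, and features passing at both were tested for the interaction over 14 libraries. The fits were also run on simulated data in which few features changed, so the simulation does not check the choice of scaling. Tables and plots were made with Python 3.11.15, numpy 2.4.6, pandas 2.3.3 and matplotlib 3.10.9. The deposited values are rpm and not read counts, so limma was used in place of a count test. In 90.8% to 93.6% of low values per library, rpm divided by the step worth 1 read gave whole reads (within 0.005 rpm). This share leaves out the very lowest values and all higher ones, and the step was the one that made it highest.

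Hairpin positions, strands and host genes come from the Ensembl 115 annotation of WBcel235. An intron was called filled when both of its ends lay within 5 nt of the hairpin ends, and all 16 such loci had offsets of 0 nt. Iso-miRs are reads with a 5′ end shifted by 1 to 3 nt, and pre-miRNA reads are other reads that overlap the hairpin.

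Named are all features that reached 1 rpm on average at either temperature, those at 0 in every library, the other arms of named hairpins, mirtrons, and low features without overlap at both temperatures and a mean of 0.5 rpm or more. Other low features and those of Y59E1B.1 were named after their values were seen. The features and lists were chosen with earlier results of these data known. Alternatives were other pseudocounts, filters and scalings, limma without trend and robust options, a replicate block, each library left out, identical features counted once, and, added after the data were seen, introns of any gene and sums with identical rows counted once.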

Additional observations from a re-analysis of the deposited data

Results flagged for a closer look

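Within the groups of 4 libraries at 25 °C, 34 groups were examined for a library far from the others, which chance gives in about 1 in 20 groups, and 4 stood apart by the ratio of the gap to the range. miR-4808-3p had a wild-type library at 1.59 rescaled rpm against 2.11 to 2.20 in the others (ratio 0.858). miR-4813-3p had a wild-type library at 9.84 against 12.0 to 12.2 (ratio 0.934). miR-4926 had a mutant library at 2.16 against 1.55 to 1.63 (ratio 0.864). miR-4936 had a mutant library at 11.6 against 9.02 to 9.31 (ratio 0.883).

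The strain effect differed between the temperatures by the interaction test of limma for 10 features. The difference in log2 fold change, 25 °C minus 20 °C, was -1.48 for miR-4811-3p, -0.75 for miR-4813-3p, -1.68 for miR-4813-5p, -0.75 for both rows of miR-5592-3p, and -1.07 and -1.08 for the rows of miR-5592-5p. It was 0.67 for miR-4816-3p, 0.48 for miR-4816-5p and 0.60 for miR-4936. The tables of the temperatures were deposited separately, and animals were grown for 72 h at 20 °C and 54 h at 25 °C, so temperature, growth time and table cannot be told apart. The developmental defects reported for the mutants at 25 °C cannot be told apart from these either.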

How the results depend on the processing

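Depth limits the low features, for which 1 read is worth 0.0425 to 0.061 rpm, and a listing of 0 does not show absence. The features upregulated at 20 °C numbered 3, with 5 on the deposited rpm and 1 without limma's trend and robust options. Over all 7034 features tested they numbered 145, 1598 and 52. With no filter on the mean, 15 of 52 features were lower and 10 higher at 25 °C. The other mature miRNAs were then 178 and 46 of 325, and all features 3095 and 3573 of 19540. With a mean of at least 5 rpm, 6 of 12 were lower and 5 higher there. The other mature miRNAs were then 126 and 22 of 170, and all features 1023 and 1107 of 2606. With these filters the median log2 fold change at 25 °C was -0.15 and -0.85, not 0.38. In the other mature miRNAs it was -0.64 and -0.80. Features of the set more negative at 25 °C than at 20 °C numbered 1 with size factors from the CSR class of 22G siRNAs. Those more positive numbered 8 with these factors, 1 with no filter and 0 on scaling to the piRNA total. Over all features, 105 of 6396 were more negative with these factors. More positive were 2768 of 6396 with these factors, 1283 of 18375 with no filter and 227 of 6396 on scaling to the piRNA total. Leaving out 1 library at a time gave 7 to 8 lower and 2 to 4 higher at 20 °C, 7 lower and 8 higher at 25 °C, and 6 to 7 more negative and 1 to 5 more positive in the interaction. Over all features these were 198 to 460 and 63 to 388 of 7034 at 20 °C. At 25 °C they were 2619 to 2781 and 2190 to 2320 of 7070. In the interaction they were 1128 to 1544 and 792 to 1051 of 6396. Same-numbered libraries of the strains did not deviate together (correlations of -0.15 to 0.10), so the numbers were not used as pairs. A replicate block gave 8 lower and 3 higher at 20 °C, 7 and 8 at 25 °C, and 7 more negative and 2 more positive in the interaction, where miR-4936 was lost (adjusted p = 0.0503). Over all features the block gave 307 and 186 at 20 °C, 2798 and 2396 at 25 °C, and 1416 and 991 in the interaction. With a mean of at least 0.1 rpm, 28 features could be tested at 20 °C and 29 at 25 °C, and 45 and 52 were above 0 in at least 1 library. At 20 and 25 °C the change in summed deposited rpm was -13.6% and -5.95%, or -4.61% and 5.98% with identical rows summed once. The summed rescaled rpm changed by -32.9% and -37.4%, and by -25.9% and -29.4% with identical rows summed once. With introns of any gene, 16 hairpins rather than 5 filled an intron.

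On the deposited rpm, the log2 fold change of the miR-4813-5p iso-miR at 20 °C was 0.046, that of miR-5549-3p at 20 °C 0.15, and that of the miR-4936 iso-miR at 25 °C 0.094, and the interactions of miR-4807 and the mir-5592.1 pre-miRNA reads were 0.12 and 0.092. With the CSR class, the miR-4936 iso-miR and mir-5592.1 were at 0.37 and 0.038 at 25 °C, and the interactions of miR-4807, mir-5592.1 and mir-5592.2 were 0.61, 0.58 and 0.046. On scaling to the piRNA total, miR-5549-3p at 25 °C was at -0.12, and the interactions of miR-4808-3p and miR-4920 were -0.18 and -0.25. The interaction of miR-4920 was -0.042 with a pseudocount of 1 rpm. Leaving out 1 library at a time at 20 °C gave -0.029 to 0.19 for miR-4937, negative only without mutant replicate 3, and -0.54 to 0.030 for miR-5549-3p, positive only without mutant replicate 2. The cause was not tested.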
